A study of Mus musculus with 16 samples.

Results

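The loci of 9 genes of the basal and squamous program were examined for chromatin accessibility: Trp63, Krt5, Krt6a, Krt14, Krt17, Dsg3, Dsc3, Pkp1 and Serpinb5. A peak belonged to a gene when its midpoint had that gene's transcription start site as the nearest protein-coding start site, within 100 kb on mm10 (GENCODE basic annotation vM21). This gave 79 of the 136630 nuclear peaks of the table, namely 27 at Trp63, 17 at Pkp1, 8 at Dsg3, 7 each at Krt5 and Dsc3, 6 at Serpinb5, 4 at Krt14 and 3 at Krt17. Krt6a had 0 peaks. The peak nearest its start site lay 9998 bp away and belonged to Krt5, so 8 of the 9 genes entered the comparisons. Of the 79 peaks, 41 were intergenic, 27 intronic, 7 within 1000 bp of a start site and 4 exonic.

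ATAC-seq, which reads open chromatin by where a transposase can cut, was run on mKate2-positive tumour cells of KC-shSmad4 mice, a model of pancreatic ductal adenocarcinoma. The cell lines carried Ptf1a-Cre, an rtTA3 and mKate2 reporter at Rosa26 and a doxycycline-dependent hairpin against Smad4 at Col1a1, which every group shared, and had been given luciferase. They were grown in female nude hosts (Foxn1nu, 6 to 8 weeks old, which lack T cells) after injection into the pancreas (Panc), the spleen for liver tumours (Liv) or the tail vein for lung tumours (Lung). Smad4 was off while hosts received doxycycline (OFF) and was restored for 14 days after withdrawal (ON), which began 4 weeks after injection for Panc, 5 weeks for Liv and 6 weeks for Lung. There were 3 mice each in Panc_OFF, Panc_ON, Lung_OFF and Lung_ON and 2 each in Liv_OFF and Liv_ON, and 60000 sorted cells per library. The number of cells injected also differed between the organs, and the spleen was removed after injection for Liv. Organ therefore cannot be told apart from the route of injection, the number of cells injected, removal of the spleen and the age of the tumour. The hairpin acts on RNA, so accessibility gives no check of Smad4 itself.

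Trp63 encodes p63, the transcription factor that maintains the basal layer of stratified epithelia. It is transcribed from an outer start site (TAp63) and an internal one (ΔNp63), of which the latter predominates in basal and squamous cells. The basal keratins Krt5 and Krt14, the stress keratins Krt6a and Krt17 and the desmosome genes of stratified epithelium belong to the same program, which normal pancreatic ducts lack and which marks the squamous or basal-like subtype of pancreatic cancer.

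The sequences under the liver-high signal are shown first for the peaks of smallest p between Liv_OFF and Lung_OFF at Trp63, Krt5, Pkp1 and Serpinb5, as the 300 bases around each midpoint (GRCm38.p6, the build of the files, plus strand), because the results below turn on these sites. Capitals mark consensus matches on either strand.
Trp63, chr16:25899840-25900139, intergenic, beyond the 3′ end of the gene: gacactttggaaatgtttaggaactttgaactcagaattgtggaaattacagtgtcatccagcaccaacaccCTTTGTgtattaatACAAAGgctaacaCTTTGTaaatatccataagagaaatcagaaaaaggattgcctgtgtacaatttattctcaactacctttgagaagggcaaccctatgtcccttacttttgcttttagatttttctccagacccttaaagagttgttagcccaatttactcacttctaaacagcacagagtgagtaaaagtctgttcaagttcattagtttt
Krt5, chr15:101714229-101714528, upstream of the start site: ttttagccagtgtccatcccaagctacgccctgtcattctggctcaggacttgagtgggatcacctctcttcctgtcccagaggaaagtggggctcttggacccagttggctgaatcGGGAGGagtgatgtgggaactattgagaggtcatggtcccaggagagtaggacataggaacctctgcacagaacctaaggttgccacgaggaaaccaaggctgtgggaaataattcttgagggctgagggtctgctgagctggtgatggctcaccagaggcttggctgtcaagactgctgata
Pkp1, chr1:135891449-135891748, intron: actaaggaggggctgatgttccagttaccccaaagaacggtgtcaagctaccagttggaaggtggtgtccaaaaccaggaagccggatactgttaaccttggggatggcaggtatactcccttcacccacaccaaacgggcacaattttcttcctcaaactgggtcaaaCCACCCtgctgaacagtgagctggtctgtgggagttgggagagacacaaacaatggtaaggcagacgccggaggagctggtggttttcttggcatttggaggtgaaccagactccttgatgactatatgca
Serpinb5, chr1:106861419-106861718, the first intron beside the promoter: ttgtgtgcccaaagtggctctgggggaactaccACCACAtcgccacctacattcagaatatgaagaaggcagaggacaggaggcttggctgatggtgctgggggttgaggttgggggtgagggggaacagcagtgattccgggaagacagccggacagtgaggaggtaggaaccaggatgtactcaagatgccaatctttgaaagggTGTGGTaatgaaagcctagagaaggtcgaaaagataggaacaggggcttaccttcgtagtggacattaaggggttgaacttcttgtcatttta
Promoters were matched by symbol to RefSeq (GRCm38.p6), in which 3 of the 8 genes with peaks had an entry and Dsc3, Dsg3, Krt17, Pkp1 and Trp63 had none. The 250 bases before the start sites of Krt5 (minus strand) and Serpinb5 (plus strand) are given because each gene's peak of smallest p covered them, whereas that of Krt14 lay at the 3′ end of the gene.
Krt5, chr15:101712906-101713155: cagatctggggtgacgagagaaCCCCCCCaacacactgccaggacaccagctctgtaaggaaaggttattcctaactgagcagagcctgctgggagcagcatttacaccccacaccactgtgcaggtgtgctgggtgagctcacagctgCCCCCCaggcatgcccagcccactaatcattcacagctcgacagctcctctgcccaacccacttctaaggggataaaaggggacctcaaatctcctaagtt
Serpinb5, chr1:106860925-106861174: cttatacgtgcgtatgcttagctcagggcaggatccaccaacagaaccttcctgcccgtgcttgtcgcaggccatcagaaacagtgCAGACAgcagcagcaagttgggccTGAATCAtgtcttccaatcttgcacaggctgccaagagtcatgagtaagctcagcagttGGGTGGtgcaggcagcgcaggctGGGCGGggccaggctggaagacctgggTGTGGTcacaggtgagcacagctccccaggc

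Searched on both strands were AP-1 (TGANTCA), TEAD (CATTCC), GRHL (AACCGG), RUNX (TGTGGT), SOX (ACAAAG), KLF (GGGNGG), SMAD (CAGACA) and the p53 family (CATG repeated after 6 bases). None of these spellings contains another. The Trp63 window held 3 SOX matches, the Serpinb5 window 2 RUNX matches, and the Krt5 and Pkp1 windows 1 KLF match each. The Krt5 promoter held 3 KLF matches, and the Serpinb5 promoter 2 KLF matches and 1 each of AP-1, RUNX and SMAD. In 300-base windows at all 79 member peaks, KLF was found in 50.6%, RUNX in 30.4%, SMAD in 30.4%, SOX in 27.8%, AP-1 in 27.8%, TEAD in 21.5% and GRHL in 2.53%. Over all 136630 peaks the same windows gave 48.6%, 27.0%, 26.1%, 25.0%, 34.1%, 20.1% and 3.38%, in that order. The p53-family spelling was in 0 member windows and in 0.98% of all windows. Among the 250-base promoters of the RefSeq table, 64.5% held the KLF letters, 6.75% AP-1, 14.0% RUNX, 17.1% SMAD, 16.5% SOX, 12.6% TEAD, 5.62% GRHL and 0.49% the p53-family letters.

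Most of these peaks were more accessible in the liver. With Smad4 off, 45 of the 79 member peaks were called higher in Liv_OFF than in Lung_OFF and 13 lower. Their median log2 fold change was 0.90 against 0.00 over all peaks. Peaks counted as called where the log2 fold change reached 0.58 in size with an adjusted p no higher than 0.1 (limma on log2(normalised count + 1), Benjamini-Hochberg over all nuclear peaks). As shares, 57.0% of member peaks were higher where 22.9% of all peaks were, and 16.5% were lower where 26.8% were. Against Panc_OFF, 40 member peaks were higher in Liv_OFF (50.6%, all peaks 26.2%) and 12 lower (15.2%, all peaks 32.3%). With Smad4 restored the same direction prevailed. Liv_ON exceeded Lung_ON at 41 member peaks (51.9%, all peaks 17.6%) and fell below it at 8 (10.1%, all peaks 18.2%). Liv_ON exceeded Panc_ON at 52 (65.8%, all peaks 27.1%) and fell below it at 9 (11.4%, all peaks 32.2%). The median log2 fold changes were 0.92 (Liv_OFF vs Panc_OFF), 0.96 (Liv_ON vs Lung_ON) and 1.36 (Liv_ON vs Panc_ON). Without replicate 2 of Liv_ON, the calls between Liv_ON and Lung_ON went from 49 to 30. The organ comparisons share samples, so their counts are not independent of each other. Replicates of the compared groups did not overlap at 60 of the 79 member peaks in Liv_OFF vs Lung_OFF (all peaks 65.9%). The counts were 65 in Liv_OFF vs Panc_OFF (all peaks 77.1%), 60 in Liv_ON vs Lung_ON (59.8%) and 64 in Liv_ON vs Panc_ON (71.4%).

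**Figure D1:**
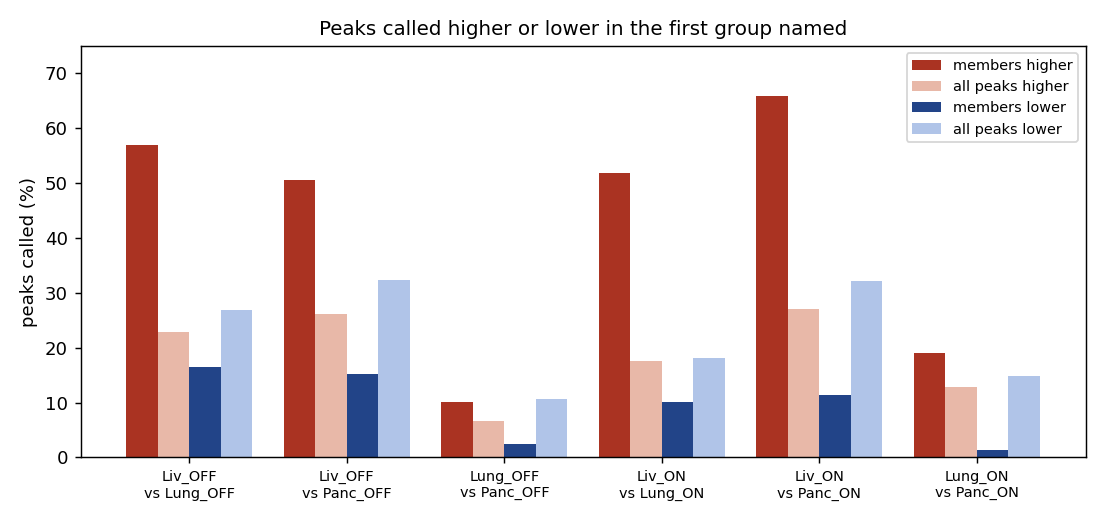
Bars give the percentage of peaks called higher or lower in the first group named on the horizontal axis, dark for the 79 member peaks and pale for all 136630 peaks. Member peaks were called higher more often than all peaks in the 4 comparisons with the liver (57.0% against 22.9% for Liv_OFF vs Lung_OFF), and both shares were smaller between lungs and pancreas.

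Markers of ductal and other cell types differed between organs as well. Of the 96 peaks of 8 ductal markers (such as Krt19 and Epcam), 54 were higher and 14 lower in Liv_OFF than in Lung_OFF. These shares, 56.2% and 14.6%, were near those of the member peaks (57.0% and 16.5%). Against Panc_OFF the ductal shares were 61.5% and 13.5%, where the members had 50.6% and 15.2%. The excess in the liver was thus not particular to the member loci. For each marker the assigned peak nearest the start site was taken at whatever distance, such as 4859 bp at Krt8, 9369 bp at Emcn and 11275 bp at Sftpb. Not all of these peaks are promoters. The summed normalised count of these nearest peaks of the 8 ductal markers was 26101 to 28368 in Liv_OFF, 14522 to 18428 in Lung_OFF and 12982 to 14786 in Panc_OFF. The 5 fibroblast markers (such as Pdgfra and Col3a1) summed to 142 to 183 in Liv_OFF, 171 to 512 in Lung_OFF and 797 to 1281 in Panc_OFF, and the 5 endothelial markers (such as Pecam1) to 122 to 142 in Liv_OFF, 196 to 893 in Lung_OFF and 271 to 351 in Panc_OFF. The endothelial sums were lowest in the liver, the fibroblast sums of liver and lungs overlapped, and the ductal sums were highest in the liver. The 6 hepatocyte markers with a peak summed to 851 to 854 in Liv_OFF, 454 to 605 in Lung_OFF and 395 to 504 in Panc_OFF. The nearest peak of Alb averaged 17.2 in Liv_OFF and 18.8 in Lung_OFF, but it lay 6557 bp from the start site and does not report the promoter. Those of Apoa1 (534 and 306), Ttr (198 and 74.1) and Tat (34.4 and 13.5) were called higher in Liv_OFF than in Lung_OFF. That of Ahsg (13.1 and 60.9) was called lower, and that of Cps1 (56.3 and 45.1) was not called. The 5 acinar markers with a peak summed to 896 to 922 in Liv_OFF, 439 to 528 in Lung_OFF and 359 to 439 in Panc_OFF. The 4 alveolar markers with a peak summed to 1277 to 1287 in Liv_OFF, 402 to 654 in Lung_OFF and 471 to 744 in Panc_OFF, and the 6 leukocyte markers to 587 to 947 in Liv_OFF, 569 to 593 in Lung_OFF and 404 to 461 in Panc_OFF. Amy2b, Apoa2, Fgb, Sftpc, Sftpa1, Lamp3 and Cd3e had no peak of their own. The part of these differences in the member loci was not tested. In bulk libraries, fewer cells with an open site and less opening per cell cannot be told apart.

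Trp63 encodes the transcription factor among the members, and its peaks divided by position along the gene. Whether p63 acts on the other loci here was not tested. At the internal start site used for ΔNp63 (position 25801916, plus strand), the peak chr16:25801682-25802018 had normalised counts of 18.5 and 34.8 in Liv_OFF and 28.0 and 27.4 in Liv_ON, against 2.76, 2.17 and 0 in Lung_OFF, 8.98, 0.958 and 1.87 in Lung_ON, 0.854, 0.893 and 0 in Panc_OFF and 1.78, 6.19 and 1.53 in Panc_ON. All 4 liver libraries lay above the other 12, whose highest value was 8.98. The log2 fold change was 3.53 ± 0.81 (SE), adjusted p = 0.00236 for Liv_OFF vs Lung_OFF and 4.12 ± 0.81 (SE), adjusted p = 0.00054 for Liv_OFF vs Panc_OFF. The counts outside the liver were near 0, so these folds on the log2(normalised count + 1) scale depend on the pseudocount. Between Liv_ON and Lung_ON it was 2.91 ± 0.81 (SE), adjusted p = 0.0126, and this call was lost without replicate 2 of Liv_ON (adjusted p = 0.102). The outer start sites, at 25683763 to 25683765, had no peak within 9831 bp.

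Of the 11 Trp63 peaks from the internal start site on, 9 were higher in Liv_OFF than in Lung_OFF and 0 lower, and the median log2 fold change was 1.88. Of the 6 peaks between the start sites, 1 was higher and 2 lower, with a median of -0.58, and of the 10 peaks upstream of the gene, 3 were higher and 5 lower, with a median of -0.67. With Smad4 restored, the counts for Liv_ON vs Lung_ON were 9 and 0 from the internal start site on, 1 and 2 between the start sites and 3 and 3 upstream. These segments were laid out after the values were seen, and their difference was not tested. An intronic peak 42000 bp downstream of the internal start site, chr16:25843531-25844301, had 55.5 and 178 in Liv_OFF and 125 and 182 in Liv_ON, against 3.68, 7.61 and 0.862 in Lung_OFF, 8.98, 2.88 and 2.80 in Lung_ON, 8.54, 9.83 and 12.0 in Panc_OFF and 8.0, 18.6 and 1.53 in Panc_ON. The liver libraries did not overlap the others there, and the log2 fold change was 4.58 ± 0.80 (SE), adjusted p = 0.000377 for Liv_OFF vs Lung_OFF. The peak of smallest p in that comparison, whose sequence is given above, was at chr16:25898832-25901147 and had 541 and 405 in Liv_OFF and 359.9 and 453 in Liv_ON, against 100.3, 190.2 and 159 in Lung_OFF, 128, 176 and 142 in Lung_ON, 123, 169 and 102 in Panc_OFF and 124, 149.8 and 110.4 in Panc_ON. All liver libraries lay above all others, with a log2 fold change of 1.69 ± 0.28 (SE), adjusted p = 0.000315. That peak was picked among called peaks whose Liv_OFF and Lung_OFF replicates did not overlap. An intronic peak 18107 bp upstream of the internal start site went the other way. At chr16:25783619-25784000 the counts were 2.47 and 5.57 in Liv_OFF and 4.66 and 3.05 in Liv_ON, against 35.0, 8.69 and 19.8 in Lung_OFF, 11.2, 23.0 and 41.1 in Lung_ON, 20.5, 30.4 and 21.3 in Panc_OFF and 21.3, 24.8 and 23.8 in Panc_ON. The liver libraries were lowest, with a log2 fold change of -2.02 ± 0.58 (SE), adjusted p = 0.00968 for Liv_OFF vs Lung_OFF and -2.37 ± 0.58 (SE), adjusted p = 0.00263 for Liv_OFF vs Panc_OFF. This peak and the intronic one at 42000 bp were chosen after their values were seen.

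**Figure D2:**
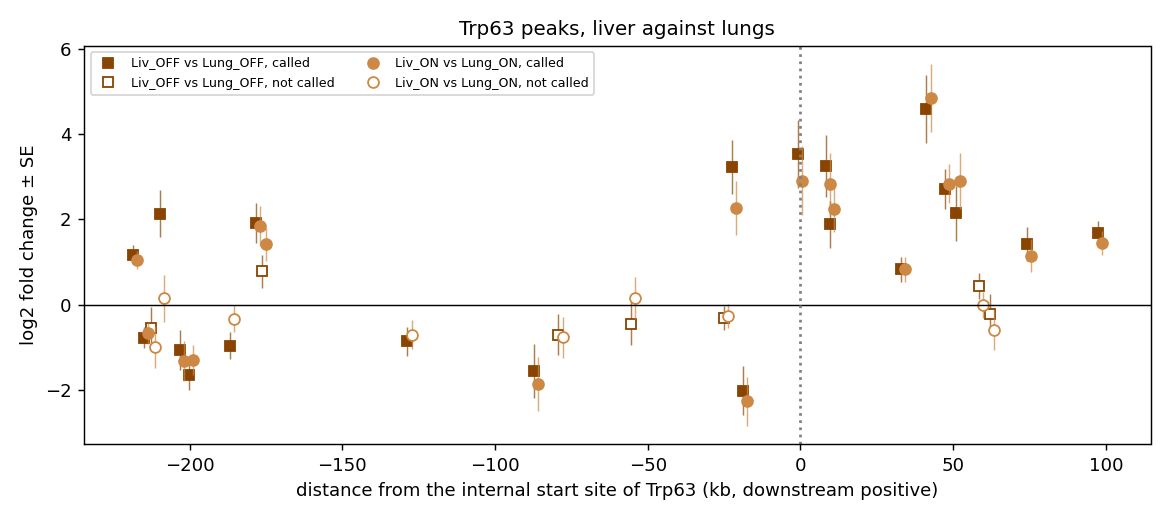
Each of the 27 Trp63 peaks is placed by its distance from the internal start site (horizontal axis, kb, dotted line at the start site) and its log2 fold change between liver and lungs (vertical axis, bars are SE), squares for Smad4 off and circles for Smad4 restored, filled where called. From the start site on, 9 of 11 peaks were called higher in the liver in each Smad4 state and none lower.

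Among the keratins, Krt5 had the largest difference between Liv_OFF and Lung_OFF at the start-site peak and over the summed locus, while the median over peaks was larger for Krt17 (3.88 against 2.70 on the log2 scale). The Krt5 start site is covered by a wide peak, chr15:101712441-101716316, that lies mostly upstream, with normalised counts of 552 and 1115 in Liv_OFF and 969 and 1088 in Liv_ON, against 35.9, 58.7 and 28.4 in Lung_OFF, 55.0, 45.0 and 38.3 in Lung_ON, 40.1, 28.6 and 30.6 in Panc_OFF and 23.1, 75.5 and 27.6 in Panc_ON. The 4 liver libraries held at least 552 and the other 12 at most 75.5. The log2 fold change was 4.29 ± 0.44 (SE), adjusted p = 1.52e-05 for Liv_OFF vs Lung_OFF, 4.54 ± 0.44 (SE), adjusted p = 5.68e-06 for Liv_OFF vs Panc_OFF and 4.46 ± 0.44 (SE), adjusted p = 3.01e-05 for Liv_ON vs Lung_ON. All 7 Krt5 peaks were called higher in the liver in each of the 4 liver comparisons. A peak across the 3′ end of the gene, chr15:101705844-101708212, had 137 and 286 in Liv_OFF and 281 and 379 in Liv_ON, against 13.8, 9.78 and 6.89 in Lung_OFF, 31.4, 4.79 and 11.2 in Lung_ON, 12.0, 6.25 and 7.41 in Panc_OFF and 10.7, 42.1 and 9.20 in Panc_ON, again with the liver apart from the other organs. Liv_OFF replicate 1 was the lowest liver library at both peaks, and Panc_ON replicate 2 was the highest of the pancreas libraries at the start-site peak.

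Krt17, a keratin of stressed and basal cells, also had all 3 of its peaks higher in the liver in the 4 liver comparisons. At the promoter peak chr11:100260876-100261514 the counts were 87.6 and 138 in Liv_OFF and 83.9 and 157 in Liv_ON, against 13.8, 5.43 and 3.45 in Lung_OFF, 15.7, 4.79 and 8.40 in Lung_ON, 7.69, 7.15 and 7.41 in Panc_OFF and 6.22, 21.0 and 7.66 in Panc_ON. The liver libraries did not overlap the others, with a log2 fold change of 3.88 ± 0.60 (SE), adjusted p = 0.000176 for Liv_OFF vs Lung_OFF and 3.58 ± 0.60 (SE), adjusted p = 0.000596 for Liv_ON vs Lung_ON. Krt14, the partner of Krt5 in basal cells, differed less. Its wide promoter peak, chr11:100205033-100209197, had 523 and 684 in Liv_OFF and 684 and 990.2 in Liv_ON, against 421, 262 and 296 in Lung_OFF, 389.7, 695 and 759.6 in Lung_ON, 394, 372 and 231 in Panc_OFF and 156, 189 and 396 in Panc_ON. The liver and lung libraries overlapped once Smad4 was restored, and the log2 fold change was 0.90 ± 0.37 (SE), adjusted p = 0.0508 for Liv_OFF vs Lung_OFF, 0.89 ± 0.37 (SE), adjusted p = 0.0469 for Liv_OFF vs Panc_OFF and 1.85 ± 0.37 (SE), adjusted p = 0.000612 for Liv_ON vs Panc_ON. The calls of Liv_OFF at this peak were lost without replicate 2 of Liv_OFF (adjusted p = 0.261 against Lung_OFF and 0.246 against Panc_OFF), without Lung_OFF replicate 2 or 3 (0.123 and 0.106) and, against Panc_OFF, without Panc_OFF replicate 3 (0.172). They were also lost with quantile normalisation (0.123 and 0.143) and with local centring, which subtracts the median shift of peaks within 5 Mb (0.14 and 0.148). The exonic peak at the 3′ end of Krt14, chr11:100202702-100203836, was higher in Liv_OFF than in Lung_OFF (1.38 ± 0.32 (SE), adjusted p = 0.00281). Against Panc_OFF its log2 fold change was 0.88 ± 0.32 (SE), adjusted p = 0.0281, a call lost without Liv_OFF replicate 2 (0.456), without Panc_OFF replicate 2 (0.108) and with local centring (0.106). Keratin genes have near-identical neighbours, and how reads with several positions were treated is not given in the sources used here.

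**Figure D3:**
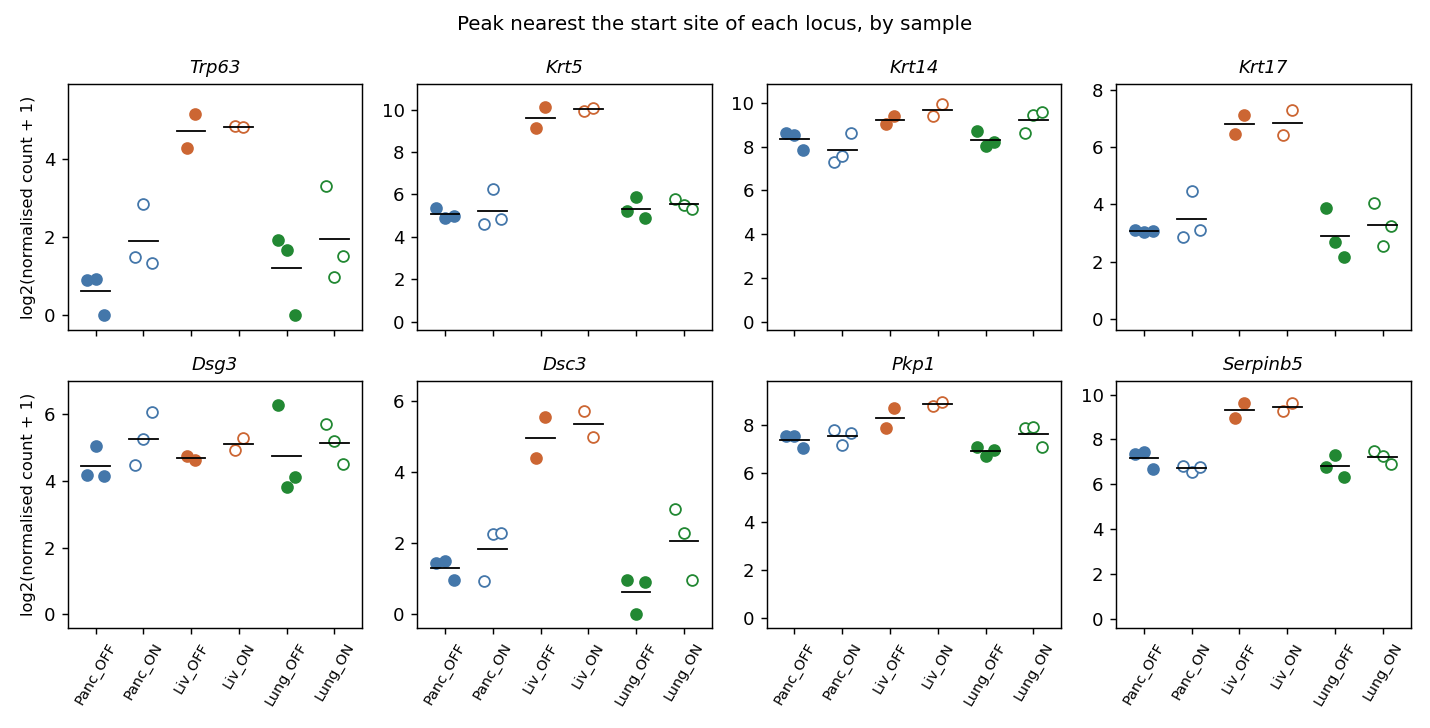
Each panel gives log2(normalised count + 1) of the peak nearest the start site of 1 gene (vertical axis) in each of the 16 samples by group (horizontal axis), filled for Smad4 off and open for restored, with a line at the group mean. The liver points lie above all others for Trp63, Krt5, Krt17, Dsc3 and Serpinb5, where for Krt5 the lowest liver count was 552 and the highest elsewhere 75.5, and they overlap other groups for Krt14, Dsg3 and Pkp1.

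The desmosome genes were mixed. Dsc3, a desmosomal cadherin of basal layers, had a promoter peak (chr18:20002031-20002409, minus strand gene) with counts of 19.7 and 46.0 in Liv_OFF and 51.2 and 30.5 in Liv_ON, against 0.920, 0 and 0.862 in Lung_OFF, 6.74, 3.83 and 0.933 in Lung_ON, 1.71, 1.79 and 0.926 in Panc_OFF and 0.889, 3.71 and 3.83 in Panc_ON. The liver libraries lay above all others, whose highest value was 6.74, and the log2 fold change was 4.35 ± 0.71 (SE), adjusted p = 0.000255 for Liv_OFF vs Lung_OFF and 3.53 ± 0.71 (SE), adjusted p = 0.000735 for Liv_ON vs Panc_ON. Over all 7 Dsc3 peaks, 3 were higher and 1 lower in Liv_OFF than in Lung_OFF, and the median log2 fold change was -0.03. Dsg3, the desmoglein of basal keratinocytes, had a promoter peak (chr18:20509547-20510174) of 25.9 and 23.7 in Liv_OFF and 29.1 and 37.6 in Liv_ON, against 76.4, 13.0 and 16.4 in Lung_OFF, 50.5, 35.5 and 21.5 in Lung_ON, 17.1, 32.2 and 16.7 in Panc_OFF and 21.3, 37.1 and 65.2 in Panc_ON. All groups overlapped the liver there, and the log2 fold change for Liv_OFF vs Lung_OFF was -0.05 ± 0.62 (SE), adjusted p = 0.957. The sign of this value turned under quantile normalisation, GC correction and local centring. An intergenic peak 20422 bp upstream of Dsg3, chr18:20489352-20490353, had 409.7 and 407 in Liv_OFF and 279.5 and 279 in Liv_ON, against 90.2, 187 and 118 in Lung_OFF, 106, 109 and 81.2 in Lung_ON, 74.3, 83.1 and 67.6 in Panc_OFF and 41.8, 63.1 and 47.5 in Panc_ON. Here the liver libraries lay above all others, with a log2 fold change of 1.69 ± 0.28 (SE), adjusted p = 0.000308 for Liv_OFF vs Lung_OFF and 2.43 ± 0.28 (SE), adjusted p = 1.49e-05 for Liv_OFF vs Panc_OFF. Non-overlap of the groups compared was a condition for picking this peak. Of the 8 Dsg3 peaks, 4 were higher and 1 lower in Liv_OFF than in Lung_OFF, and 1 and 0 in Liv_ON against Lung_ON.

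Pkp1, a plakophilin that links desmosomal cadherins to keratin filaments, had 10 of 17 peaks higher and 4 lower in Liv_OFF than in Lung_OFF. Its promoter peak (chr1:135918685-135919600, minus strand gene) had 236 and 419 in Liv_OFF and 440.3 and 499.7 in Liv_ON, against 137, 105 and 126 in Lung_OFF, 237, 244 and 137 in Lung_ON, 186, 187 and 131 in Panc_OFF and 224, 146 and 201 in Panc_ON. Liv_OFF replicate 1 overlapped Lung_ON, and the log2 fold change was 1.36 ± 0.30 (SE), adjusted p = 0.00181 for Liv_OFF vs Lung_OFF. Against Panc_OFF it was 0.92 ± 0.30 (SE), adjusted p = 0.0144, a call that was lost without replicate 2 of Liv_OFF (0.251). The intronic peak shown above, chr1:135890930-135892267, had 143 and 297 in Liv_OFF and 331 and 416 in Liv_ON, against 50.6, 27.2 and 31.0 in Lung_OFF, 71.9, 61.3 and 34.5 in Lung_ON, 56.4, 71.5 and 44.5 in Panc_OFF and 48.9, 66.8 and 56.0 in Panc_ON, with all liver libraries above all others and a log2 fold change of 2.53 ± 0.38 (SE), adjusted p = 0.000145 for Liv_OFF vs Lung_OFF. Non-overlap of Liv_OFF and Lung_OFF was a condition for picking this intronic peak. The 4 lower peaks all lay upstream of the gene, one of them, chosen after its values were seen, at chr1:135938345-135938899 with a log2 fold change of -1.63 ± 0.28 (SE), adjusted p = 0.000362. Serpinb5, which encodes maspin, a serpin of basal and myoepithelial cells, had a promoter peak (chr1:106860603-106862534) with 504 and 784 in Liv_OFF and 613 and 799 in Liv_ON, against 107, 159.8 and 80.1 in Lung_OFF, 179.7, 151 and 119 in Lung_ON, 163, 171 and 102 in Panc_OFF and 111, 92.8 and 108 in Panc_ON. The lowest liver library held 504 and the highest other library 179.7. The log2 fold change was 2.49 ± 0.31 (SE), adjusted p = 4.04e-05 for Liv_OFF vs Lung_OFF and 2.74 ± 0.31 (SE), adjusted p = 8.8e-06 for Liv_ON vs Panc_ON.

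Normalised counts were also summed over all peaks of each gene and tested over 17815 genes. Summed loci were called higher in the liver for 4 of the 8 genes in Liv_OFF vs Lung_OFF (Trp63, Krt5, Krt17 and Serpinb5, all genes 32.2% in either direction), for 6 in Liv_OFF vs Panc_OFF (36.8%), for 5 in Liv_ON vs Lung_ON (20.8%) and for 8 in Liv_ON vs Panc_ON (35.9%), and 0 were lower. Without replicate 2 of Liv_ON, the 5 became 2. For Liv_OFF vs Lung_OFF the summed levels differed 11.4-fold at Krt5, 2.75-fold at Krt17, 2.59-fold at Serpinb5 and 2.07-fold at Trp63. The log2 fold changes were 3.50 ± 0.41 (SE), adjusted p = 4.92e-05 at Krt5 and 1.05 ± 0.18 (SE), adjusted p = 0.000467 at Trp63. At Dsg3, Krt14, Pkp1 and Dsc3 they were 0.52, 0.42, 0.36 and -0.14 and were not called. Across the 16 samples the log2 summed level of Trp63 correlated most with that of Krt5 (Pearson r = 0.86) and least with that of Dsc3 (r = 0.45) among the members. Of 7772 other genes with at least 5 peaks, Pak6 (r = 0.97), Ccdc34 (0.97), Arhgef18 (0.97), Crybg1 (0.97) and Pla2r1 (0.97) followed Trp63 most closely. These correlations describe 16 samples that share organ and depth, and no test was made.

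Lungs and pancreas differed at fewer member peaks. With Smad4 off, 8 member peaks were higher in Lung_OFF than in Panc_OFF (10.1%, all peaks 6.59%) and 2 lower (2.53%, all peaks 10.7%). They comprised 3 Dsg3, 3 Dsc3, 1 Krt5 and 1 Trp63 peak higher and 2 Trp63 peaks lower. The count of 10 became 2 without Panc_OFF replicate 2, 1 without Panc_OFF replicate 3 and 6 without Lung_OFF replicate 3. The Krt5 peak upstream of the start site, chr15:101717259-101718589, had a log2 fold change of 1.20 ± 0.43 (SE), adjusted p = 0.0792, and the intronic Trp63 peak chr16:25723026-25723668 one of -1.63 ± 0.44 (SE), adjusted p = 0.0231. The former call was lost without Panc_OFF replicate 2 (0.283) or 3 (0.165) or Lung_OFF replicate 2 (0.269), and the latter without Panc_OFF replicate 3 (0.106). With Smad4 restored, 15 were higher in Lung_ON than in Panc_ON (19.0%, all peaks 12.8%) and 1 lower (1.27%, all peaks 14.9%), and the 16 became 10 without Panc_ON replicate 1. The Dsc3 peak chr18:19955239-19956589 had counts of 166, 203 and 269.7 in Lung_ON and 59.6, 61.9 and 129.5 in Panc_ON, a log2 fold change of 1.41 ± 0.28 (SE), adjusted p = 0.0022. Summed loci were called higher in Lung_OFF than in Panc_OFF for Dsg3 and Dsc3 (all genes 5.76% in either direction) and in Lung_ON than in Panc_ON for Krt14, Dsg3 and Dsc3 (all genes 14.0%). The 2 calls with Smad4 off became 1 or 0 when any single library of either group was left out, and the 3 became 5 without Panc_ON replicate 3. Of the 8 start-site peaks, 0 were called in Lung_OFF vs Panc_OFF and 1, that of Krt14, in Lung_ON vs Panc_ON.

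Restoration of Smad4 gave few calls at these peaks. The share called was near that of all peaks in the pancreas and below it when averaged over organs (1.27%, all peaks 6.62%). The median log2 fold change of the 79 member peaks was 0.08 in the pancreas (all peaks 0.04), 0.43 in the liver (all peaks 0.02) and 0.26 in the lungs (all peaks 0.00), with 43, 63 and 66 of the 79 above 0. These medians describe peaks of shared libraries and were not tested. In the pancreas 0 member peaks were higher and 3 lower in Panc_ON than in Panc_OFF (3.8%, all peaks 3.42% in either direction). The peak 99752 bp upstream of Trp63, chr16:25582126-25585896, went from 538, 423 and 479 in Panc_OFF to 265, 234 and 267 in Panc_ON, a log2 fold change of -0.90 ± 0.20 (SE), adjusted p = 0.0321. The intronic Pkp1 peak chr1:135882928-135883781 went from 204, 195 and 132 to 100.5, 100.3 and 111 (-0.74 ± 0.20 (SE), adjusted p = 0.0757). The third, an intronic Trp63 peak at chr16:25860572-25861643 that was named after its values were seen, went from 266, 255 and 242 to 137, 139 and 113 (-0.97 ± 0.27 (SE), adjusted p = 0.0811). In each of these peaks the groups did not overlap, which for the Trp63 peak upstream and the Pkp1 peak was a condition of the choice. In this comparison the groups did not overlap at 11 of the 79 member peaks and at 25.5% of all peaks. The count of 3 became 0 without Panc_OFF replicate 1, Panc_OFF replicate 2 or Panc_ON replicate 2, 1 without Panc_ON replicate 1 and 5 without Panc_ON replicate 3.

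In the liver and in the lungs limma called 0 of the 79 member peaks (all peaks 0.55% and 0.00366%), with 10 and 5 at an unadjusted p under 0.05, and edgeR and DESeq2 also called 0 in each. Without Liv_OFF replicate 2 there was 1 call in the liver. At the Krt5 start-site peak the log2 fold change on restoration was 0.39 ± 0.48 in the liver, 0.21 ± 0.39 in the lungs and 0.15 ± 0.39 in the pancreas (SE). Averaged over the organs, 1 member peak was called (1.27%, all peaks 6.62%), the intronic Dsg3 peak chr18:20516997-20517745, at 0.60 ± 0.19 (SE), adjusted p = 0.0801. Its counts were 82.7 and 123 in Liv_OFF and 176 and 208 in Liv_ON, against 362, 173 and 222 in Lung_OFF, 325, 320.1 and 271 in Lung_ON, 151, 161 and 133 in Panc_OFF and 154, 169.6 and 380.2 in Panc_ON, so the groups overlapped within the pancreas and the lungs. That count became 0 without Panc_OFF replicate 1 or 3, Liv_OFF replicate 1, Liv_ON replicate 1 or 2, Lung_OFF replicate 3 or Lung_ON replicate 2. It became 3 without Panc_ON replicate 2, Liv_OFF replicate 2 or Lung_ON replicate 3 and 8 without Lung_OFF replicate 1. Limma called 0 of the 8 summed loci in the pancreas, liver and lungs, with 1, 2 and 0 at an unadjusted p under 0.05, and edgeR and DESeq2 called 0 in each. Without Panc_ON replicate 3, 1 was called in the pancreas. Over the 3 organs their log2 fold changes lay between -0.37 (Trp63 in the pancreas) and 0.58 (Dsc3 in the liver).

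**Figure D4:**
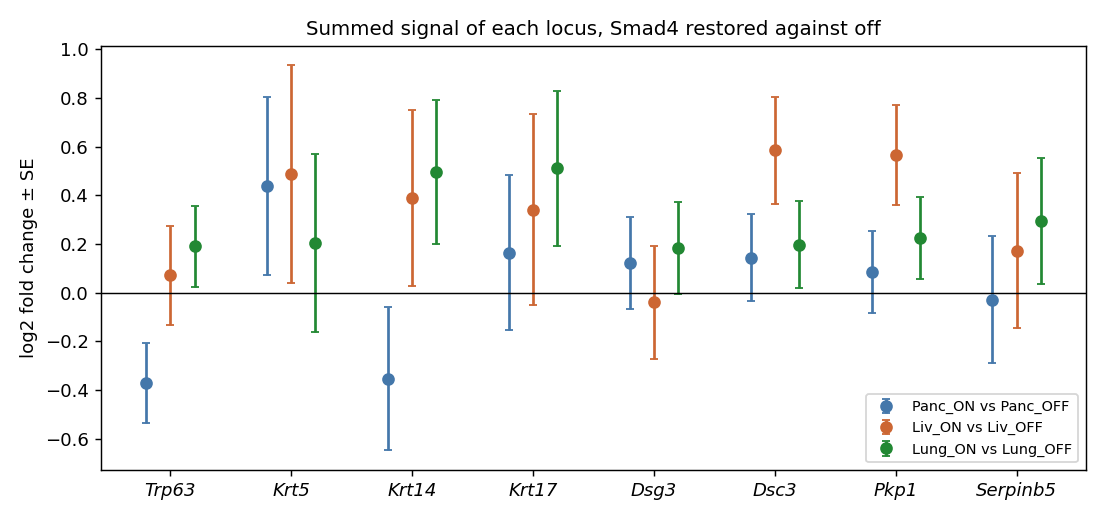
The log2 fold change of the summed signal of each locus, Smad4 restored against off (vertical axis, bars are SE), is given for the 8 genes with peaks (horizontal axis) in pancreas, liver and lungs. The values lie between -0.37 and 0.58 and none was called.

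The effect of restoration was also compared between organs by interaction terms. Limma called 0 member peaks for liver minus lungs, liver minus pancreas and lungs minus pancreas (0.0% of all peaks in each), with 1, 4 and 9 at an unadjusted p under 0.05. DESeq2 called 0, 1 and 1, and edgeR 0 in each. When a block was fitted for the replicate number of the lung samples, 3 member peaks were called for lungs minus pancreas. Without Lung_OFF replicate 2, 1 was called.

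The wider program was read from 7 further lists. Of the 90 peaks of 12 squamous regulators, 58 were higher and 12 lower in Liv_OFF than in Lung_OFF (64.4% and 13.3%, all peaks 22.9% and 26.8%), and the median log2 fold change was 1.49. The start-site peak of Zfp750, a p63-dependent factor of epidermal differentiation, averaged 166 in Liv_OFF and 8.59 in Lung_OFF. Its log2 fold change was 4.08 ± 0.51 (SE), adjusted p = 4.22e-05, and those of Sox15 and Grhl3 were 1.92 and 1.48. These 3 led by p among 6 start-site peaks called higher, with 1 called lower. At Sox2 the start-site peak averaged 52.9 in Liv_OFF, 126 in Lung_OFF and 164 in Panc_OFF. Of 104 peaks of 12 other desmosome genes, 41 were higher and 17 lower (39.4% and 16.3%). Perp, a p63 target, had 1.44 ± 0.20 (SE), Pkp3 1.24 and Pkp2 0.77, which led by p among 6 start-site peaks called higher, with 1 called lower. The start-site peak of Cdsn averaged 58.3 in Liv_OFF and 193 in Lung_OFF, and had -1.83 for Liv_ON vs Lung_ON. Of 34 peaks of 9 other stratified keratins with a peak, 13 were higher and 3 lower (38.2% and 8.82%), with Krt15 at 2.92, Krt75 at 2.32 and Krt13 at -1.28. Of 48 peaks of 9 cornified envelope genes, 18 were higher and 8 lower (37.5% and 16.7%), with the cross-linked protein genes Evpl at 1.48 and Lor at 0.60 higher and Sprr1b at -0.90 lower.

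The 9 hemidesmosome and basal adhesion genes had 37 peaks higher and 74 lower of 205 in Liv_OFF than in Lung_OFF, with a median of -0.32. The share called higher was below the 22.9% of all peaks. The share called lower was 36.1%, above the 26.8% of all peaks, so this list ran opposite to the member peaks. Of the 9 start-site peaks of these genes, however, 6 were higher and 1 lower. Lama3 (2.43 ± 0.27), Lamb3 (1.90) and Col17a1 (3.82), which encode laminin-332 chains and the hemidesmosomal collagen, led by p. Of 96 peaks of 12 genes of the basal-like tumour signature, 38 were higher and 13 lower (39.6% and 13.5%), with Krt7 at 1.43 and Ly6d at 2.66. The classical signature moved in the same direction, with 58 of 158 peaks higher and 29 lower (36.7% and 18.4%), and Lgals4 at 1.46, Prr15l at 1.36 and Pla2g10 at 2.40. The lists hold a few genes each and were described, not tested. With Smad4 restored, 59 of the 90 peaks of the squamous regulators were higher and 3 lower in Liv_ON than in Lung_ON (65.6% and 3.33%, all peaks 17.6% and 18.2%). Of the classical signature, 43 of 158 were higher and 27 lower (27.2% and 17.1%), the latter near the share of all peaks. Restoration in the pancreas lowered 20 of the 158 peaks of the classical signature and raised 1 (12.7% and 0.633%, all peaks 3.42% in either direction), with Prr15l at -1.38, Tff2 at -1.71 and Lgals4 at -0.97. These values were not tested against those of the members.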

How the data were processed

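ATAC-seq libraries of 16 samples in 6 groups were analysed, with 23.0 to 38.2 M recovered reads in peaks each. According to the labels and the study's methods, Trim Galore and cutadapt served for trimming and Bowtie2 for alignment to mm10. MACS2 peaks were merged by the authors over all samples, and featureCounts read counts were divided by DESeq2 size factors. The deposited values are thus a signal, the normalised read count per peak. Transposase shift and duplicate removal are not given in the sources used here, and undetected duplicates would narrow the apparent counting error. A size factor assumes that most peaks are stable. In Liv_OFF vs Panc_OFF 26.2% of all peaks were called higher and 32.3% lower, and in Liv_ON vs Panc_ON 27.1% and 32.2%. By these calls most peaks were not stable there, while the median log2 fold change over all peaks was -0.055 and -0.081. Lung column names give day 15 where the labels give 14 days. Each value was a whole multiple of 1 read (100.0%, tolerance 0.001 reads). The mitochondrial row (1.43% to 3.56% of reads) was left out.

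Limma 3.58.1 (R 4.3.3, trend and robust) was fitted to log2(value + 1) of 136630 nuclear peaks with 1 mean for each of 6 groups, with no filter on low values, and its p-values were adjusted by Benjamini-Hochberg over all peaks. Folds on this scale understate low peaks. The test was first run on simulated data. Named were each member's start-site peak and its called peak of smallest p with replicates apart. At the latter, non-overlap of the compared groups follows from the choice. Wider lists were read by counts and up to 3 start-site peaks of smallest p. A start-site peak was the peak assigned to a gene that lay nearest its start site, at any distance within 100 kb. Members and lists were chosen with earlier results of these data known. Another allele of the model and 1 gene of a wider list are not reported here. Alternatives were a pseudocount of 10, a mean of at least 20, TMM, quantile normalisation, edgeR 4.0.16, DESeq2 1.42.0, thresholds of 1 and 0.05, only the groups compared, replicate blocks, GC correction, start sites within 50 kb, centring within 5 Mb and leaving out each sample. Deviations from group means of same-numbered lung samples correlated at 0.491, 0.124 and 0.214, and those of different-numbered ones at -0.34 to 0.184. On that statistical ground alone a fit with the lung pairs as a block was an alternative. The reported calls come from the fit with no block.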

Additional observations from a re-analysis of the deposited data

How the results depend on the processing

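Every count of called peaks or summed loci in the 4 comparisons with the liver stayed within 1.5 times its value under every alternative run, except between Liv_ON and Lung_ON, where leaving out 1 library gave 30 to 47 member peaks instead of 49, and 2 to 5 summed loci instead of 5, and thresholds of 1 and 0.05 gave 3 summed loci. Smaller counts moved more. Thresholds of 1 and 0.05 gave 2 member peaks for Lung_OFF vs Panc_OFF, 7 for Lung_ON vs Panc_ON, 0 for Panc_ON vs Panc_OFF and 0 averaged over organs, and 0 and 1 summed loci for Lung_OFF vs Panc_OFF and Lung_ON vs Panc_ON. Panc_ON vs Panc_OFF gave 1 with GC correction and 1 with start sites within 50 kb. The averaged restoration gave 0 with a pseudocount of 10, quantile normalisation, GC correction, the replicate block in every organ with GC correction, or local centring, 2 with a mean of at least 20, the replicate block in every organ or edgeR, and 3 with DESeq2. In the interactions DESeq2 gave 1 for Liv minus Panc and 1 for Lung minus Panc, where the replicate block in the lungs only gave 3. Summed loci gave 1 for Lung_OFF vs Panc_OFF with local centring and 1 for Liv_ON vs Liv_OFF in a fit of only the groups compared. The cause was not tested. Leaving out 1 library at a time gave 1 to 14 member peaks for Lung_OFF vs Panc_OFF, 10 to 20 member peaks for Lung_ON vs Panc_ON, 0 to 5 member peaks for Panc_ON vs Panc_OFF, 0 to 1 member peaks for Liv_ON vs Liv_OFF, 0 to 8 member peaks for restoration averaged over organs, 0 to 1 member peaks for the interaction Lung minus Panc, 0 to 1 summed loci for Lung_OFF vs Panc_OFF, 2 to 5 summed loci for Lung_ON vs Panc_ON and 0 to 1 summed loci for Panc_ON vs Panc_OFF.

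The sign turned only at start-site peaks that were not called. The values are log2 fold changes. For Dsc3 in Lung_ON vs Panc_ON, 0.25 became -0.197 to 0.804 without 1 library. For Dsg3 in Liv_OFF vs Lung_OFF, -0.047 became 0.127 with quantile normalisation, 0.333 with GC correction, 0.333 with the replicate block in every organ with GC correction, 0.032 with local centring and -0.508 to 0.723 without 1 library. For Dsg3 in Liv_ON vs Lung_ON, -0.031 became 0.163 with GC correction, 0.163 with the replicate block in every organ with GC correction, 0.017 with local centring and -0.347 to 0.252 without 1 library. For Dsg3 in Liv_ON vs Panc_ON, -0.17 became 0.028 with quantile normalisation, 0.304 with GC correction, 0.304 with the replicate block in every organ with GC correction and -0.559 to 0.224 without 1 library. For Dsg3 in Lung_OFF vs Panc_OFF, 0.278 became -0.492 to 0.739 without 1 library. For Dsg3 in Lung_ON vs Panc_ON, -0.139 became 0.122 with quantile normalisation, 0.142 with GC correction, 0.142 with the replicate block in every organ with GC correction and -0.529 to 0.255 without 1 library. For Krt14 in Lung_OFF vs Panc_OFF, -0.017 became 0.074 with GC correction, 0.074 with the replicate block in every organ with GC correction and -0.26 to 0.125 without 1 library. For Krt17 in Lung_OFF vs Panc_OFF, -0.163 became 0.08 with quantile normalisation, 0.03 with edgeR, 0.031 with DESeq2 and -0.653 to 0.215 without 1 library. For Krt17 in Lung_ON vs Panc_ON, -0.2 became 0.129 with quantile normalisation and -0.593 to 0.293 without 1 library. For Krt5 in Lung_OFF vs Panc_OFF, 0.252 became -0.034 to 0.476 without 1 library. For Krt5 in Lung_ON vs Panc_ON, 0.314 became -0.005 to 0.828 without 1 library. For Pkp1 in Lung_ON vs Panc_ON, 0.091 became -0.087 to 0.36 without 1 library. For Trp63 in Lung_ON vs Panc_ON, 0.049 became -0.642 to 0.533 without 1 library. The cause was not tested. In the pancreas same-numbered samples correlated at -0.33 to 0.027 and different-numbered ones at -0.11 to 0.36. In the liver 2 libraries per group mirror each other around their mean, so every pair gave 0.083 in size. These values cannot show whether a number marks a shared batch. The replicate block changed no other call past the counts given. Depth limits the peaks with few reads, such as the Trp63 and Dsc3 start-site peaks outside the liver. Groups of 2 or 3 mice leave single libraries able to decide a call.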
